A study of Mus musculus with 24 samples.

Results

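The subject is the left ventricle of the mouse 7 days after transverse aortic constriction (TAC), set against the left ventricle 7 days after a sham operation. Of the 24 libraries of a time course at days 2, 4, 7 and 21, the 3 libraries labelled TAC day 7 and the 3 labelled sham day 7 were taken by their titles, 6 of 24 in all. TAC narrows the aorta with a ligature, so that the left ventricle pumps against a raised pressure from the day of the operation. A sham operation is the same surgery without the narrowing. The labels give the operation, the day and the tissue, and they name no strain, genotype, sex or age. They do not say whether the replicates are separate animals, so that the p-values measure the spread between these samples, which may be technical.

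Pressure overload makes heart muscle cells grow without dividing, and they turn on genes of the fetal heart such as the natriuretic peptides and the slow myosin heavy chain. Over the same time fibroblasts lay down collagen and other matrix, macrophages enter or multiply, and cells that are not muscle cells go through the cell cycle. Fuel use moves away from fatty acids, which the healthy adult ventricle burns in its many mitochondria.

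The count table held 24015 genes. The libraries of day 7 held 13008818, 11862637 and 11762978 counted reads after sham and 14351645, 12538764 and 14936851 after TAC (replicates 1, 2 and 3). Ttn, the gene of the giant sarcomere protein titin, took 8.39% to 9.87% of each library. CPM here is a counts-per-million value after scaling by the trimmed mean of M values (TMM). The defining gene of ventricular muscle, Myl2, the ventricular light chain, had 6949.5, 6811 and 7108 CPM after sham and 3093, 6841 and 4915 after TAC. The red blood cell genes for the globins were at 0 in all 6 libraries, while Alas2 of the same list had 8.6 to 12.8 CPM. Why the globins were at 0 was not tested, so they do not measure blood in the tissue. The 13 skeletal muscle genes summed to 2.15 to 4.03 CPM. Among the TAC libraries, the atrial markers Myl7, Myl4, Mybphl and Sln were highest in TAC replicate 1 and lowest in TAC replicate 2. Myl7, the atrial light chain, had 2.60, 3.54 and 3.37 CPM after sham and 60.6, 0 and 7.09 CPM after TAC. Myl4 had 2.53, 4.32 and 2.22 CPM after sham and 37.5, 0.641 and 3.67 after TAC. Mybphl had 0, 0.432 and 0.0887 CPM after sham and 10.9, 0.24 and 1.14 after TAC. Sln had 0.473, 0.864 and 0.266 CPM after sham and 12.5, 0 and 0.696 after TAC. The atrial Bmp10 was at 0 in all 6. The 10 atrial genes, of which Clu is also made elsewhere in the heart, summed to 530, 549 and 626 CPM after sham and to 2687, 520 and 1059 after TAC. Most of each sum was Clu, with 500, 513 and 595 and then 2540, 493 and 1020, and the other 9 summed to 29.7, 36.4 and 31 CPM after sham and 142, 27.4 and 43.8 after TAC. Their part in the results was not tested, and values without TAC replicate 1 are given beside results that it moves.

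In the whole transcriptome, 3201 of 13816 genes tested differed between TAC and sham at day 7 by edgeR's quasi-likelihood test at an adjusted p under 0.05 (Benjamini-Hochberg over all genes tested), which is 23.2%. Of these, 1816 were higher after TAC (13.1% of genes tested) and 1385 were lower (10%). The higher genes moved further: 729 of them were at least 2-fold higher, while 117 were at least 2-fold lower. The median log2 fold change was 0.0032 over all genes and 0.634 in size over the called genes. In 39.9% of all genes tested the 3 TAC and 3 sham libraries did not overlap, and in 3029 of the 3201 called genes they did not. Lack of overlap is thus usual in a called gene and adds little to the call where it is given below. Among the called genes, 2680 belong to none of the 51 lists of pathways and cell types used here.

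**Figure D1:**
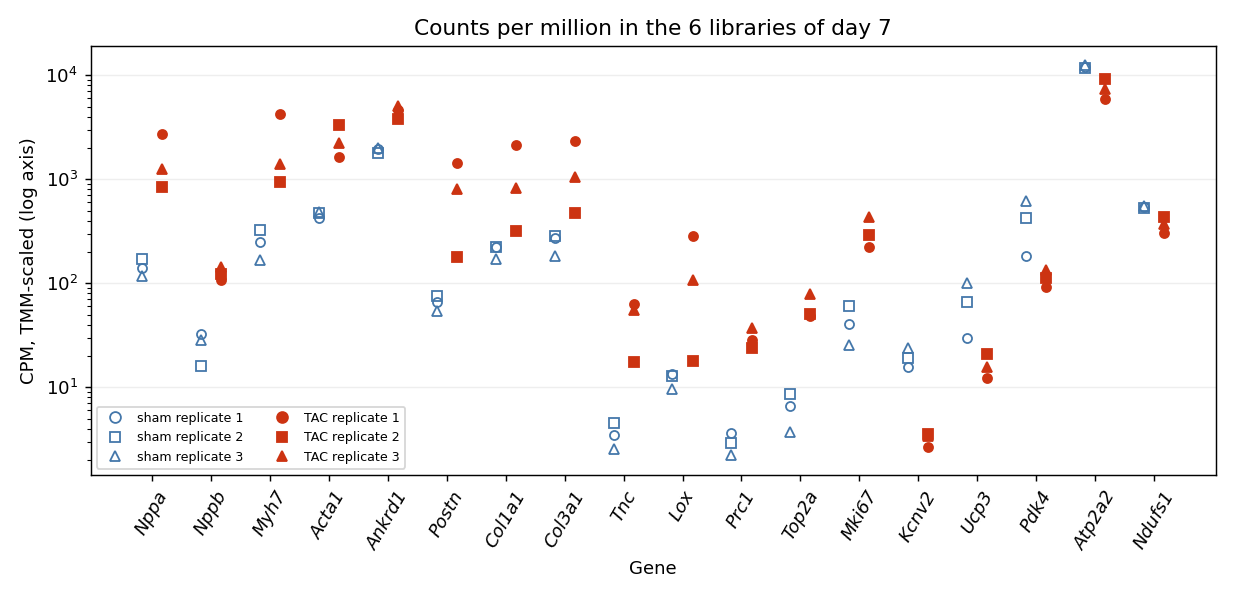
TMM-scaled CPM (log axis) of 18 genes in each sham (open) and TAC (filled) library of day 7, with 1 symbol shape for each replicate number. Muscle stress, matrix and mitotic genes sit higher in the 3 TAC libraries and Kcnv2, Ucp3, Pdk4, Atp2a2 and Ndufs1 lower, with TAC replicates 1 and 2 far apart for Col1a1, Lox and Myh7.

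The 3 TAC libraries differed from each other far more than the 3 sham libraries did. The chi-square over genes, divided by its degrees of freedom, was 3.70 to 4.64 within sham and 15.6 to 58.9 within TAC, where replicates 1 and 2 were the farthest apart. Relative to the mean of the sham libraries, the median collagen was higher by 3.09, 0.841 and 1.72 on the log2 scale in TAC replicates 1, 2 and 3, and the median fatty acid gene was lower (-1.17, -0.352 and -0.645). Oxidative phosphorylation genes (-0.902, -0.151 and -0.374) and macrophage genes (1.07, 0.325 and 0.759) followed the same order. The cell cycle did not: the median mitotic gene was higher by 2.34, 2.46 and 2.98, and the median gene of DNA replication by 0.888, 1.12 and 1.42. Cytoskeletal genes (0.816, 0.670 and 0.928) and endothelial genes (0.218, 0.150 and 0.267) were close to even across the 3 libraries. TAC replicate 1 was therefore the farthest from sham in matrix and fuel genes, and TAC replicate 2 the nearest, while the proliferation genes were high in all 3.

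**Figure D2:**
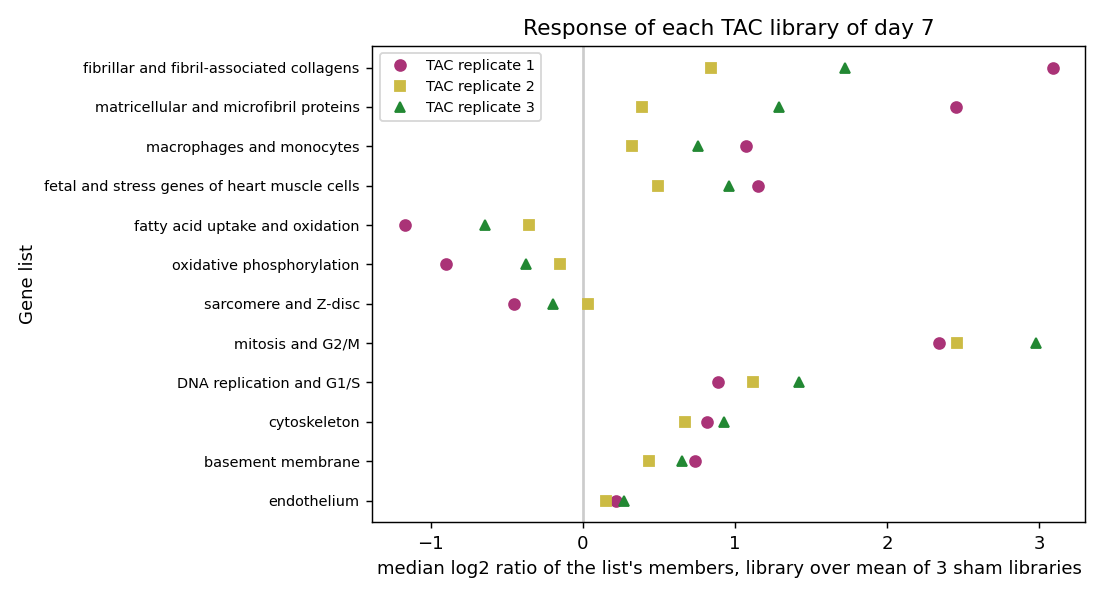
Median log2 ratio of the tested members of 12 gene lists (rows) in each TAC library of day 7 over the mean of the 3 sham libraries. Collagens run from 0.841 to 3.09 and oxidative phosphorylation genes from -0.902 to -0.151 between TAC replicates, while mitotic genes stay between 2.34 and 2.98.

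This spread sets which calls rest on 1 library. Without TAC replicate 1 the count fell from 3201 to 1270 genes, of which 1241 were shared with the 3201, and 69.8% of them were higher, against 56.7% with all libraries. Without TAC replicate 2 it was 4132, without TAC replicate 3 it was 1884, and without sham replicates 1, 2 and 3 it was 2027, 2093 and 1569. All 3201 genes kept their direction in each of these 6 fits. Bulk RNA cannot tell fewer cells of a type apart from less RNA per cell, which holds for every result below.

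The stress genes of heart muscle cells were higher after TAC. Of 21 members tested, 11 rose and 0 fell, with a median log2 fold change of 1.23. Nppa encodes atrial natriuretic peptide, a hormone that the stretched ventricle also makes. It stood at 142, 172 and 118 CPM in the sham libraries and at 2760.2, 853 and 1263 CPM in the TAC libraries (log2 fold change 3.497 ± 0.51, SE throughout, adjusted p = 0.000194). The lowest TAC library was far above the highest sham library. Nppb, the gene of brain natriuretic peptide, had 32.8, 15.9 and 28.7 CPM after sham and 107, 122 and 145 after TAC (log2 fold change 2.27 ± 0.37, adjusted p = 0.000392), and here the 3 TAC libraries lay close together. Myh7, the slow myosin of the mouse ventricle before birth, had 248, 329 and 168 CPM after sham and 4274, 952 and 1392 after TAC (log2 fold change 3.15 ± 0.70, adjusted p = 0.00409). Acta1, skeletal alpha-actin, had 429, 470.2 and 482 CPM after sham and 1630.4, 3361 and 2234 after TAC (log2 fold change 2.39 ± 0.43, adjusted p = 0.000887). Nppa and Myh7 were highest in TAC replicate 1 and Acta1 was highest in TAC replicate 2, so the order of the TAC libraries was not the same for all stress genes. Without TAC replicate 1 the log2 fold change was 2.88 for Nppa and 2.24 for Myh7. Ankrd1, a stretch-responsive protein of the sarcomere and nucleus, had 1963, 1782 and 1992 CPM after sham and 4647, 3804 and 5032 after TAC (log2 fold change 1.23 ± 0.32, adjusted p = 0.0107).

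Sprr1a, a small proline-rich protein induced by stress, gave the largest log2 fold change among the genes named by the rule used here (7.54 ± 2.26, adjusted p = 0.0221), and it did so unevenly. It had 1, 2 and 0 reads in the sham libraries and 473, 4 and 348 in the TAC libraries. The pooled reads gave a ratio of 241 with an exact 95% counting interval of 82.1 to 1170, which covers counting error only. TAC replicate 2 had about as few reads as the sham libraries, and the call was lost without any 1 library other than TAC replicate 2 (adjusted p = 0.0709, 0.0633 and 0.0763 without sham replicates 1, 2 and 3, 0.0877 without TAC replicate 1 and 0.0509 without TAC replicate 3) and by limma-voom (0.566). The stress gene count was 7 without sham replicate 2, sham replicate 3 or TAC replicate 3 and 6 without TAC replicate 1.

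Shares within pairs of related genes, on the authors' RPKM, which divides by gene length, give the mix of each. Myh7 made up 0.780%, 0.938% and 0.672% of Myh6 plus Myh7 after sham and 15.4%, 2.44% and 4.18% after TAC. Acta1 made up 3.52%, 4.35% and 3.70% of Acta1 plus Actc1, the cardiac actin, after sham and 14.5%, 18.8% and 14.8% after TAC. In both pairs the adult form stayed the larger one in all 6 libraries. Rpl3l, the muscle form of ribosomal protein L3, made up 73.3%, 77.6% and 78.1% of Rpl3 plus Rpl3l after sham and 33.9%, 50.6% and 41.2% after TAC. The larger form thus changed in 2 of the 3 TAC libraries. The members of each pair are alike in sequence, and the sources used here do not give how reads that match both were counted. In counts, Rpl3 rose (log2 fold change 0.91 ± 0.20, adjusted p = 0.00342) and Rpl3l fell (-1.13 ± 0.28, adjusted p = 0.00723, or 0.0531 without TAC replicate 1). Myh6, the fast adult myosin, had 48234, 51022 and 49694 CPM after sham and 24247, 43374 and 33920 after TAC. Its 3 TAC libraries were all below the sham libraries, but it missed the threshold by edgeR (log2 fold change -0.55 ± 0.20, adjusted p = 0.0510). It passed without TAC replicate 2 (-0.77, adjusted p = 0.00926), by DESeq2 (adjusted p = 0.0180) and by limma-voom (0.0374).

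Of the genes of contraction, calcium cycling and electrical activity, a part was lower after TAC. In the sarcomere and Z-disc, 6 of 27 fell and 0 rose (median -0.19, or -0.077 without TAC replicate 1 and -0.29 without TAC replicate 2). Tmod1, which caps the thin filament, had 547, 606 and 592 CPM after sham and 341, 459 and 414 after TAC (log2 fold change -0.52 ± 0.10, adjusted p = 0.000990). The other 5 were Tnnt2, Tnni3, Ablim1, Nebl and Tcap, and the count was 1 to 3 without any 1 sham library, TAC replicate 1 or TAC replicate 3 and 10 without TAC replicate 2. Of 24 calcium handling genes, 9 fell and 0 rose (median -0.17, or -0.31 without TAC replicate 1), and no single library moved that count by more than 1.5 times. Camk2a, a calcium-dependent kinase, had 107, 111 and 109.6 CPM after sham and 43.6, 75.7 and 56.97 after TAC (log2 fold change -0.90 ± 0.16, adjusted p = 0.000948). Pln, which restrains the calcium pump of the sarcoplasmic reticulum, had 4436, 4543 and 4904 CPM after sham and 2570.3, 3576 and 2922 after TAC (-0.61 ± 0.13, adjusted p = 0.00331). Ryr2, the calcium release channel, had 4835, 4483 and 4995 CPM after sham and 3163, 3734 and 3447 after TAC (-0.47 ± 0.11, adjusted p = 0.00448). In all 3 genes the TAC libraries lay below all sham libraries. Trdn, which couples that channel to its calcium store, fell by a like amount (-0.60 ± 0.13, adjusted p = 0.00394). Atp2a2, the calcium pump itself, had 12144, 11694 and 12460 CPM after sham and 5985, 9148 and 7452 after TAC (-0.68 ± 0.18, adjusted p = 0.0100); without TAC replicate 1 its log2 fold change was -0.54 at an adjusted p of 0.0654.

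Among 30 ion channels and connexins, 11 fell (median -0.45), and of the 11 all but Abcc9 and Hcn4 are potassium channel genes by name. Kcnv2, a potassium channel subunit that has no current of its own, went from 15.8, 19.2 and 23.7 CPM after sham to 2.69, 3.53 and 3.42 after TAC (-2.61 ± 0.38, adjusted p = 0.000181). Kcnj2, the main channel of the inward rectifier current that holds the resting potential, had 98.4, 94.5 and 104 CPM after sham and 49.5, 55.7 and 49.8 after TAC (-0.94 ± 0.17, adjusted p = 0.000948). Abcc9, the sulfonylurea receptor of ATP-sensitive potassium channels, had 967, 1002 and 952 CPM after sham and 445, 624 and 491 after TAC (-0.90 ± 0.20, adjusted p = 0.00346), and Kcnj5, of the acetylcholine-gated channel, fell too (-0.69 ± 0.13, adjusted p = 0.00156). None of these 4, which were named for their small p, overlapped between groups, as was so for 39.9% of all genes tested. All 4 passed without each library in turn. The lower count was 4 without TAC replicate 1, 7 without TAC replicate 3 or sham replicate 1 and 6 without sham replicate 3. Of 28 adrenergic and cyclic nucleotide genes, 6 rose and 4 fell, against 13.1% and 10% of all genes tested. The 4 that fell were the receptors Adra1a, Adra1b and Adrb1 and the phosphodiesterase Pde4d. Gnai2, an inhibitory G protein subunit, rose from 261, 279 and 252 CPM after sham to 360.1, 371 and 396 after TAC (0.51 ± 0.087, adjusted p = 0.000623). These counts were 1 and 0 without TAC replicate 1, 3 and 1 without sham replicate 3, with 8 lower without TAC replicate 2 and 1 lower without TAC replicate 3.

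Most genes that burn fat, branched-chain amino acids and ketone bodies fell, and none of those tested was called higher in the main fit. In the branched-chain and ketone list the highest log2 fold change was 0.439, and 1 gene was higher after TAC without overlap. A fit of the 6 libraries of day 7 alone called 1 gene of that list higher. Of 34 genes of fatty acid uptake and oxidation, 31 fell and 0 rose (median -0.69), and of 21 genes of branched-chain amino acid and ketone body use, 17 fell and 0 rose (median -0.58). Slc27a1, a fatty acid transporter, had 67.7, 72.2 and 78.3 CPM after sham and 29.7, 42.4 and 32.4 after TAC (-1.07 ± 0.20, adjusted p = 0.00118). Decr1, an enzyme that prepares unsaturated fatty acids for oxidation, had 228, 240.4 and 265 CPM after sham and 95.96, 178 and 156 after TAC (-0.77 ± 0.17, adjusted p = 0.00459), and Acot2, a mitochondrial thioesterase, had 99.9, 143 and 144 CPM after sham and 34.1, 68.4 and 55.6 after TAC (-1.29 ± 0.25, adjusted p = 0.00163). The TAC libraries lay below the sham libraries in all 3. Pdk4, the kinase that shuts off pyruvate dehydrogenase when fat is burned, had 184, 425 and 622 CPM after sham and 91.7, 114 and 133 after TAC (-1.86 ± 0.37, adjusted p = 0.00185). Ucp3, a mitochondrial carrier induced by fasting, had 29.8, 66.1 and 101 CPM after sham and 12.3, 20.8 and 15.8 after TAC (-2.01 ± 0.47, adjusted p = 0.00552). For both the sham libraries themselves varied more than 3-fold, with sham replicate 1 the lowest, and still did not overlap with TAC. Dbt, a subunit of the branched-chain ketoacid dehydrogenase, had 88.02, 82.2 and 84.03 CPM after sham and 38.5, 56.7 and 45.00 after TAC (-0.86 ± 0.14, adjusted p = 0.000525), and Oxct1, which activates ketone bodies for burning, had 1313, 1253 and 1293 CPM after sham and 704, 901 and 804 after TAC (-0.68 ± 0.13, adjusted p = 0.00113). The fatty acid count was 15 without sham replicate 3 and 8 without TAC replicate 1, and the branched-chain and ketone count was 8 without TAC replicate 1.

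In the mitochondrial machinery a part of the genes fell. Of 51 oxidative phosphorylation genes, 23 fell and 0 rose (median -0.45), and of 24 genes of the tricarboxylic acid cycle and pyruvate dehydrogenase, 12 fell and 0 rose (median -0.44). Without TAC replicate 1 these medians were -0.25 and -0.28. Ndufs1, a core subunit of complex I, had 537, 527 and 552 CPM after sham and 305, 436 and 375 after TAC (-0.53 ± 0.12, adjusted p = 0.00351). Cox7c, a small subunit of cytochrome c oxidase, had 85.5, 80.9 and 86.4 CPM after sham and 54.7, 64.7 and 60.6 after TAC (-0.49 ± 0.10, adjusted p = 0.00170), and Idh3g, a subunit of the isocitrate dehydrogenase of the cycle, had 559, 549 and 614 CPM after sham and 294, 435 and 401 after TAC (-0.61 ± 0.13, adjusted p = 0.00403). These 3 passed without each library in turn, but the counts did not hold: oxidative phosphorylation had 2 lower genes without TAC replicate 1, 45 without TAC replicate 2, 10 without TAC replicate 3 and 9, 11 and 6 without sham replicates 1, 2 and 3, and the cycle had 1 without TAC replicate 1, 21 without TAC replicate 2, 4 without TAC replicate 3, 5 without sham replicate 1 and 3 without sham replicate 3. In a fit of the 6 libraries of day 7 alone, 9 oxidative phosphorylation genes fell. Glycolysis and glucose uptake had 3 of 24 genes higher (Pfkp, Slc16a3 and Hk1), 2 lower (Pfkfb1 and Ldhb) and a median of -0.066. These shares are near the 13.1% higher and 10% lower of all genes tested. The higher count ranged from 0 to 3 and the lower count from 0 to 6 without 1 library. Each of the 6 libraries moved one or both by over 1.5 times. Among 26 nuclear regulators of energy genes, 8 fell and 1 rose. Thrb, a thyroid hormone receptor, had 41.6, 49.7 and 44.8 CPM after sham and 29.4, 33.3 and 29.2 after TAC (-0.57 ± 0.11, adjusted p = 0.00126). Ppargc1a, a coactivator of mitochondrial genes, had 335, 323 and 313 CPM after sham and 165, 259 and 199 after TAC (-0.64 ± 0.16, adjusted p = 0.00925; 0.0689 without TAC replicate 1). Tbx20, a cardiac T-box factor, was the member that rose, from 233, 229 and 231 CPM after sham to 414, 290.3 and 356 after TAC (0.61 ± 0.14, adjusted p = 0.00525). The lower count of regulators was 1 without TAC replicate 1, 3 without TAC replicate 3 and 4, 3 and 5 without sham replicates 1, 2 and 3.

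Matrix genes rose together. All 17 fibrillar and fibril-associated collagens tested rose (median 2.32), as did 22 of 31 matricellular and microfibril genes (median 1.89), 11 of 15 basement membrane genes (median 0.62), 13 of 20 genes of collagen crosslinking and folding (median 0.66) and 5 of 13 proteoglycan genes (Aspn, Vcan, Bgn, Lum and Ecm1, median 1.27), and 0 in these 5 lists fell. Without TAC replicate 1 the medians were 1.34 for these collagens, 1.15 for matricellular, 0.43 for crosslinking and 0.24 for proteoglycan genes, and in TAC replicate 2 the median proteoglycan gene lay at -0.079 on the log2 scale relative to sham. By limma-voom the proteoglycan median was 0.64. Col1a1, the main chain of type I collagen, had 222, 223 and 171 CPM after sham and 2146, 319.5 and 826 after TAC (2.42 ± 0.55, adjusted p = 0.00460). Col3a1, of type III collagen, had 272, 284 and 185 CPM after sham and 2355, 474 and 1054 after TAC (2.39 ± 0.48, adjusted p = 0.00204). Each was above sham in all 3 TAC libraries, and the highest and lowest TAC library differed by more than 4-fold. Without TAC replicate 1 the log2 fold change was 1.48 for Col1a1 (adjusted p = 0.0603) and 1.63 for Col3a1 (adjusted p = 0.0226). Col5a3, a minor fibrillar chain, and Col15a1, a collagen of basement membrane zones, were more even. Col5a3 had 19.6, 15.4 and 13.4 CPM after sham and 48.8, 33.4 and 40.4 after TAC (1.34 ± 0.24, adjusted p = 0.000738), and Col15a1 had 122, 109.9 and 101 CPM after sham and 477, 252 and 342 after TAC (1.69 ± 0.30, adjusted p = 0.000758). The collagen count was 11 without TAC replicate 1.

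Postn, periostin, a matricellular protein of activated fibroblasts, had 66.4, 76.4 and 53.7 CPM after sham and 1436, 181 and 808 after TAC (3.63 ± 0.66, adjusted p = 0.000948; 2.92 without TAC replicate 1). Cthrc1, which activated fibroblasts secrete, had 1, 2 and 2 reads in the sham libraries and 817, 4 and 227 in the TAC libraries, a pooled ratio of 184 (exact 95% counting interval 78.4 to 567, adjusted p = 0.00242). TAC replicate 2 was again close to sham, although the call held without each library in turn (but not by limma-voom, adjusted p = 0.299), with a log2 fold change of 7.18 that was 5.66 without TAC replicate 1. Tnc, tenascin C, had 3.47, 4.58 and 2.57 CPM after sham and 62.9, 17.6 and 55.5 after TAC (3.68 ± 0.91, adjusted p = 0.00779, or 0.107 by limma-voom). Fbn1, fibrillin 1 of the microfibrils, had 158, 173 and 145 CPM after sham and 868, 343 and 558 after TAC (1.89 ± 0.31, adjusted p = 0.000515), and Eln, elastin, had 17.2, 15.1 and 15.2 CPM after sham and 306, 31.7 and 76.8 after TAC (3.13 ± 0.61, adjusted p = 0.00158; 1.78 without TAC replicate 1). TAC replicate 1 was the highest and TAC replicate 2 the lowest in each of these genes. Lox, the oxidase that crosslinks collagen and elastin, had 13.3, 12.8 and 9.67 CPM after sham and 282, 17.95 and 107 after TAC (3.51 ± 0.86, adjusted p = 0.00734) and did not pass without TAC replicate 1 (2.40, adjusted p = 0.0701) or by limma-voom (0.0719). Loxl2, its relative, had 47.2, 44.01 and 35.8 CPM after sham and 150.5, 80.96 and 126 after TAC (1.49 ± 0.31, adjusted p = 0.00278). The matricellular count was 13 without sham replicate 3 and 11 without TAC replicate 1, and 13 by limma-voom, the crosslinking count 7, 8 and 8 without sham replicates 1, 2 and 3 and 5 without TAC replicate 1, and the proteoglycan count 3 without sham replicate 1, 2 without sham replicate 3 and 1 without TAC replicate 1.

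The basement membrane genes named here were more even across the TAC libraries. Col4a1 and Col4a2 encode the 2 chains of the common type IV collagen. Col4a1 had 575, 527 and 501 CPM after sham and 1614, 1183 and 1398 after TAC (1.39 ± 0.18, adjusted p = 8.89e-05), and Col4a2 had 472, 416 and 402 CPM after sham and 1070.0, 889 and 989 after TAC (1.19 ± 0.15, adjusted p = 8.57e-05). Nid2, nidogen 2, which links laminin to type IV collagen, had 37.5, 33.98 and 32.5 CPM after sham and 77.6, 72.1 and 76.8 after TAC (1.12 ± 0.15, adjusted p = 0.000138). Lama4, a laminin chain of vessel and muscle cell basement membranes, had 164, 161 and 152 CPM after sham and 259, 229 and 272 after TAC (0.67 ± 0.094, adjusted p = 0.000148). In these 4 genes the 3 TAC libraries lay close to each other, and no single library moved the count of the list by more than 1.5 times. Of 25 matrix proteases and inhibitors, 10 rose and 1 fell. Adam19, a membrane protease, had 22.4, 21.96 and 18.9 CPM after sham and 52.6, 40.8 and 42.3 after TAC (1.10 ± 0.14, adjusted p = 7.93e-05), and Mmp14, which sits on the cell surface and activates other matrix proteases, had 9.87, 9.60 and 9.85 CPM after sham and 51.5, 16.1 and 26.6 after TAC (1.69 ± 0.35, adjusted p = 0.00264). The inhibitors went both ways: Timp1 rose (2.66 ± 0.93, adjusted p = 0.0428) and Timp4, the form typical of the heart, fell (-0.98 ± 0.31, adjusted p = 0.0292), and both lost the call without any 1 library other than TAC replicate 2 (adjusted p 0.0798 to 0.176 and 0.0502 to 0.163), Timp1 also by limma-voom (0.319). The rising count was 6 without sham replicate 2 or 3, 5 without TAC replicate 1 and 6 by limma-voom.

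Fibroblast state genes rose in part. Of 19 genes of activated fibroblasts, 12 rose and 0 fell (median 1.15), and of 20 genes of resident fibroblasts, 7 rose and 3 fell (median 0.19, or 0.085, 0.33 and 0.29 without TAC replicate 1, TAC replicate 2 and sham replicate 2). Meox1, a transcription factor of fibroblasts in stressed hearts, had 13.5, 17.1 and 13.6 CPM after sham and 79.2, 37.5 and 66.7 after TAC (2.06 ± 0.39, adjusted p = 0.00143). Cd248, a surface protein of stromal cells, had 21.6, 17.1 and 9.94 CPM after sham and 31.6, 23.8 and 30.00 after TAC (0.81 ± 0.20, adjusted p = 0.00702). The resident genes that fell were Gsn, Dpep1 and Clec3b. Gsn, gelsolin, which cuts actin filaments and is abundant in quiescent fibroblasts, had 647, 703 and 692 CPM after sham and 439, 456 and 335 after TAC (-0.73 ± 0.16, adjusted p = 0.00314), with no overlap. The activated count was 7 without sham replicate 1, 6 without sham replicate 3 and 3 without TAC replicate 1, and the resident count of higher genes was 4 without sham replicate 3 and 2 without TAC replicate 1. In the TGF-beta and activin family, whose ligands drive fibroblasts to make matrix, 8 of 29 rose and 2 fell (Bmp6 and Tgfbr3; 0 without sham replicate 1 and 1 without sham replicate 2, TAC replicate 1 or TAC replicate 3). Tgfb1, a ligand, had 29.4, 30.3 and 26.3 CPM after sham and 51.9, 43.04 and 49.8 after TAC (0.75 ± 0.14, adjusted p = 0.00103), and Ctgf, a target of this pathway, had 56.2, 56.5 and 43.7 CPM after sham and 357, 117 and 207 after TAC (2.12 ± 0.48, adjusted p = 0.00435). The count of 8 was 4, 3 and 2 without sham replicates 1, 2 and 3, 2 without TAC replicate 1, 15 without TAC replicate 2 and 5 by limma-voom. Of 18 Wnt genes, 4 rose (Fzd1, Fzd2, Sfrp1 and Sfrp2) and 0 fell, and 0 rose without TAC replicate 1, 1 without sham replicate 1, 2 without sham replicate 2 or 3 and 1 by limma-voom. Without TAC replicate 1, 1 Wnt gene was higher at an unadjusted p under 0.05.

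Among growth factor genes, 4 of 45 were higher (Igfbp7, Igfbp4, Igf1 and Ace) and 4 lower (Fgf1, Fgf9, Angpt1 and Erbb4), shares under the 13.1% and 10% of all genes tested. Fgf1 had 280.1, 342 and 324 CPM after sham and 181, 225 and 205 after TAC (-0.63 ± 0.11, adjusted p = 0.000912). Angpt1, a ligand that steadies vessels through the receptor Tie2, had 56.6, 91.2 and 74.3 CPM after sham and 36.3, 32.2 and 30.9 after TAC (-1.16 ± 0.23, adjusted p = 0.00199). Igfbp7, a secreted binding protein, had 218, 199.8 and 182 CPM after sham and 718, 321 and 472 after TAC (1.33 ± 0.27, adjusted p = 0.00194). All 3 were free of overlap and passed without each library in turn. The higher count was 2 without sham replicate 2 or 3 or TAC replicate 3 and 1 without TAC replicate 1.

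Genes of macrophages rose, and those of lymphocytes, which had few reads, did not pass. Of 35 macrophage and monocyte genes, 21 rose and 0 fell (median 0.84). Csf1r, the receptor that macrophages need to live, had 51.5, 47.6 and 46.2 CPM after sham and 91.99, 56.2 and 70.6 after TAC (0.59 ± 0.13, adjusted p = 0.00403). C1qa, a complement chain made by tissue macrophages, had 22.7, 22.1 and 21.03 CPM after sham and 51.3, 28.1 and 45.3 after TAC (0.93 ± 0.21, adjusted p = 0.00445), and Tyrobp, a signalling adaptor of myeloid cells, had 1.89, 2.77 and 2.31 CPM after sham and 7.14, 4.09 and 6.14 after TAC (1.33 ± 0.30, adjusted p = 0.00495). TAC replicate 1 was the highest and TAC replicate 2 the lowest in each, and the latter still lay above sham. The count was 10 without sham replicate 1, 9 without sham replicate 3, 4 without TAC replicate 1, 13 without TAC replicate 3 and 13 by limma-voom. Of 11 genes of lymphocytes, natural killer and dendritic cells, 0 passed by edgeR, by DESeq2 or by limma-voom, while 2 were higher and 1 lower at an unadjusted p under 0.05 by edgeR, and 2 rose without TAC replicate 2 and 1 fell without sham replicate 1 or TAC replicate 2. The median log2 fold change of these 11 was 1, no lower than that of the macrophage list, and 0.715 without TAC replicate 1. The 29 genes of that list, most with too few reads to be tested, summed to 9.31 to 12.01 CPM after sham and 12.2 to 21.2 after TAC. The lack of calls therefore does not show that lymphocyte genes stayed level. Of 10 neutrophil and acute phase genes, 1 fell (Lrg1) and 0 rose by edgeR, with 2 higher at an unadjusted p under 0.05 and 1 called higher by DESeq2. Here 0 fell without sham replicate 3, TAC replicate 1 or TAC replicate 3, and 2 rose without TAC replicate 2. Kit and Hdc rose in the list of 6 mast cell genes, a count that was 1 without any 1 library other than TAC replicate 2. Kit passed in all 6 of these fits, where Kit, a receptor that some endothelial cells carry as well, had 8.92, 9.68 and 7.81 CPM after sham and 12.8, 17.6 and 16.7 after TAC (0.83 ± 0.17, adjusted p = 0.00260).

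Of 33 chemokines and cytokines, 7 rose and 2 fell (Cxcl14 and Ccl11; 1 without TAC replicate 1 or 3). Ccl8, which draws monocytes, had 0.0789, 0.432 and 0.177 CPM after sham and 3.78, 0.721 and 3.35 after TAC (3.504 ± 0.68, adjusted p = 0.00157; 4.31 without sham replicate 2). Cxcl10, an interferon-induced chemokine, had 0.237, 2.16 and 0.887 CPM after sham and 7.69, 2.89 and 8.61 after TAC (2.56 ± 0.59, adjusted p = 0.00483; 3.53 without sham replicate 2). Cxcl14 had 15.8, 13.3 and 27.2 CPM after sham and 5.74, 8.82 and 6.01 after TAC (-1.46 ± 0.26, adjusted p = 0.000731). Ccl8 and Cxcl10 were under 10 CPM in all 6 libraries, whereas Cxcl14 was above 10 CPM in the 3 sham libraries. Of 36 genes of the interferon response and antigen presentation, 15 rose and 0 fell (median 0.60). Irf7, the main transcription factor of this response, had 7.89, 8.91 and 12.7 CPM after sham and 24.8, 14.7 and 30.2 after TAC (1.25 ± 0.22, adjusted p = 0.000793), and Bst2, an antiviral membrane protein, had 17.4, 16.7 and 16.2 CPM after sham and 28.8, 25.3 and 39.6 after TAC (0.90 ± 0.16, adjusted p = 0.000852). Here TAC replicate 3 was the highest library. The chemokine count was 3 without sham replicate 1 and 4 without sham replicate 3 or TAC replicate 1, and the interferon count was 6, 7 and 6 without sham replicate 1, sham replicate 3 and TAC replicate 1, 5 without TAC replicate 3 and 23 without TAC replicate 2. Of 18 complement genes, 7 rose and 2 fell (Cd59a and C7), and without 1 library of day 7 at a time 2 to 9 rose and 0 to 1 fell, with the fewest without TAC replicate 1.

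The endothelial list was split. Of 39 genes, 14 rose and 5 fell (median 0.33). Mcam, an adhesion protein of vessel cells, had 36.4, 39.3 and 32.8 CPM after sham and 81.9, 78.5 and 90.6 after TAC (1.21 ± 0.17, adjusted p = 0.000180). Aplnr, the apelin receptor of growing vessels, had 27.6, 24.6 and 26.00 CPM after sham and 64.2, 48.8 and 52.1 after TAC (1.08 ± 0.19, adjusted p = 0.000652). Pecam1 and Cdh5, which most endothelial cells carry at their junctions, moved by less. Pecam1 had 179, 189 and 168 CPM after sham and 224, 234 and 255 after TAC (0.41 ± 0.082, adjusted p = 0.00185) and Cdh5 had 407, 428 and 397 CPM after sham and 478, 575 and 620.5 after TAC (0.44 ± 0.10, adjusted p = 0.00383). The 5 that fell were Vwf, Flt1, Cd300lg, Aqp1 and Prox1. Vwf, von Willebrand factor, had 78.2, 78.7 and 79.2 CPM after sham and 62.4, 44.1 and 48.9 after TAC (-0.60 ± 0.15, adjusted p = 0.00698), with sham libraries that differed by about 1 CPM. The counts of higher genes were 7 without sham replicate 1 or 3 and 8 without TAC replicate 3, and those of lower genes 3, 3 and 1 without sham replicates 1, 2 and 3 and 1 and 2 without TAC replicates 1 and 3. Of 19 pericyte and smooth muscle genes, 3 rose (Cspg4, Cald1 and Notch3) and 2 fell (Synpo2 and Abcc9, the latter also in heart muscle), shares near the 13.1% and 10% of all genes tested, and 1 rose without sham replicate 3. Cspg4, the pericyte proteoglycan NG2, had 54.9, 50.1 and 44.01 CPM after sham and 83.5, 79.8 and 78.7 after TAC (0.70 ± 0.12, adjusted p = 0.000738), and Synpo2 had 247, 248 and 267 CPM after sham and 189, 189.9 and 186 after TAC (-0.43 ± 0.077, adjusted p = 0.000832).

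Genes of the dividing cell rose almost without exception. Of 47 genes of mitosis and G2/M, 45 rose and 0 fell (median 3.03), and of 39 genes of DNA replication and the G1/S step, 32 rose and 0 fell (median 1.34). No single library moved either count by more than 1.5 times. Many mitotic genes share a promoter layout: a CCAAT box, which the factor NF-Y binds, and near the transcription start a cell cycle genes homology region (CHR), which the MuvB complexes bind to silence or turn on the gene through the cycle. E2F sites are typical of the genes of DNA replication. The stretches below run 5′ to 3′ on the strand of the gene and are from RefSeq's GRCm38.p6 annotation. They are the parts of 4 promoters that hold both motifs. The 4 genes were picked as named mitotic genes with both motifs in a window. They are examples chosen by motif and do not stand for the whole list. Capitals mark each CCAAT or its reverse complement ATTGG and each TTTGAA or its reverse complement TTCAAA.

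Prc1, chr7:80294404-80294461, plus strand: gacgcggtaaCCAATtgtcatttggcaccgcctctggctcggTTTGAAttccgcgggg
Top2a, chr11:99024197-99024426, minus strand: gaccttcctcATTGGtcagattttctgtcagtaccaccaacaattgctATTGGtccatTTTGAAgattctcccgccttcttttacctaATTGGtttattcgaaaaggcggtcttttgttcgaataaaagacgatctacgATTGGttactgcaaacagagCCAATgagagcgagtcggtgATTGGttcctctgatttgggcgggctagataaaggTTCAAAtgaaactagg
Ckap2, chr8:22185825-22185930, minus strand: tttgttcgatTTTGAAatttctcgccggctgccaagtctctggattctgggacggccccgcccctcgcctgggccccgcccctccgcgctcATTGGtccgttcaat
Mki67, chr7:135716462-135716577, minus strand: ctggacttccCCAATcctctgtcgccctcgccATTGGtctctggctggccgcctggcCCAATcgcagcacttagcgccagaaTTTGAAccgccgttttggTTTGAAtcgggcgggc

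These stretches end 14, 7, 5 and 82 bases before the annotated start of Prc1, Top2a, Ckap2 and Mki67. Ckap2 departs from the layout above, as its TTTGAA lies farther from the start than its ATTGG. In Mki67 all matches lie more than 82 bases before the start. A gene with several windows counted as holding a motif if any of them did. In the 250 bases before the start, on both strands, TTTGAA was found in 15 of the 40 mitotic genes with a RefSeq window (37.5%). It was found in 12.7% of the 10293 genes tested that have one and in 18.3% of all 27025 genes with a window. TTTGAA was found in 5 of 32 genes of DNA replication (15.6%) and in 3 of 13 collagen genes (23.1%). CCAAT was found in 27 of 40 mitotic genes (67.5%) and as often in genes of DNA replication (21 of 32, 65.6%). The share was 40% of genes tested and 37.5% of all genes with a window. Both motifs together were found in 12 of 40 mitotic genes (30%), 4 of 32 genes of DNA replication (12.5%) and 0 of 13 collagen genes. The share was 4.74% of genes tested and 6.45% of all genes with a window. The E2F octamers TTTCCCGC, TTTCGCGC, TTTGCCGC and TTTGGCGC were found in 10 of 32 genes of DNA replication (31.2%) and 2 of 40 mitotic genes. The share was 3.82% of genes tested and 2.16% of all genes with a window. A match describes the letters in the window and shows no binding, and no match says only that these letters are not in this window. The sources used here do not give the mouse build of the deposited tables, and the windows were matched by gene symbol alone.

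Prc1, which bundles microtubules in the dividing spindle, had 3.63, 2.94 and 2.22 CPM after sham and 28.4, 24.05 and 37.3 after TAC (3.34 ± 0.44, adjusted p = 0.000123). Top2a, the topoisomerase of dividing cells, had 6.55, 8.65 and 3.73 CPM after sham and 48.2, 50.9 and 78.9 after TAC (3.23 ± 0.46, adjusted p = 0.000175). Ckap2, a spindle protein, had 1.74, 2.42 and 1.69 CPM after sham and 16.1, 13.9 and 22.9 after TAC (3.18 ± 0.43, adjusted p = 0.000138). Mki67, the antigen Ki-67 that marks cells in cycle, had 40.4, 60.2 and 25.6 CPM after sham and 222, 290.1 and 437 after TAC (2.91 ± 0.42, adjusted p = 0.000165). In all 4, TAC replicate 3 was the highest library, sham replicate 3 was the lowest, and no TAC library came near sham. Kif4, a chromosome motor, rose as far (3.29 ± 0.43, adjusted p = 9.6e-05), as did Ccna2, cyclin A2 (3.32 ± 0.45, adjusted p = 0.000138). In DNA replication, E2f1, the transcription factor that opens S phase, had 1.18, 1.04 and 0.710 CPM after sham and 4.15, 5.93 and 5.70 after TAC (2.41 ± 0.35, adjusted p = 0.000180). Lig1, the ligase that joins replicated DNA, had 4.03, 2.42 and 3.28 CPM after sham and 10.8, 13.6 and 16.8 after TAC (2.08 ± 0.33, adjusted p = 0.000301), and Rrm2, a subunit of the enzyme that makes deoxynucleotides, had 2.37, 3.03 and 2.31 CPM after sham and 16.1, 9.46 and 19.1 after TAC (2.53 ± 0.43, adjusted p = 0.000571). TAC replicate 2, the weakest in matrix genes, was no lower than TAC replicate 1 for Top2a, Mki67, E2f1 and Lig1.

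Cell cycle inhibitors and D cyclins did not move together, with 7 of 20 higher and 3 lower (Cdkn1c, Mdm2 and Rbl2). Cdkn1c, the inhibitor p57, had 19.6, 24.8 and 20.9 CPM after sham and 10.01, 10.02 and 9.43 after TAC (-1.15 ± 0.22, adjusted p = 0.00161). Cdkn1a, the inhibitor p21, had 6.39, 6.57 and 7.28 CPM after sham and 26.7, 14.7 and 17.8 after TAC (1.55 ± 0.36, adjusted p = 0.00576). Rbl1, the pocket protein p107, had 4.42, 6.14 and 4.53 CPM after sham and 12.9, 15.95 and 17.4 after TAC (1.61 ± 0.25, adjusted p = 0.000273). Their groups did not overlap, and p21 and p57 went opposite ways. The higher count was 4 without TAC replicate 1.

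Of 45 cytoskeletal genes, 35 rose and 0 fell (median 0.84), a count that no single library moved by more than 1.5 times. Fscn1, which bundles actin in cell protrusions, had 25.8, 28.4 and 29.02 CPM after sham and 60.6, 73.3 and 76.1 after TAC (1.34 ± 0.18, adjusted p = 0.000138). Tmsb10, a small actin-binding peptide, had 38.2, 33.5 and 32.2 CPM after sham and 92.5, 72.1 and 112 after TAC (1.41 ± 0.22, adjusted p = 0.000299), and Vim, vimentin, the intermediate filament of cells other than muscle cells, had 253, 270.4 and 202 CPM after sham and 806, 498 and 696 after TAC (1.46 ± 0.26, adjusted p = 0.000738). Stmn1, a tubulin-binding protein of dividing cells, rose as well (1.56 ± 0.23, adjusted p = 0.000212).

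Stress and housekeeping lists moved in a part of their genes. Of all genes tested, 13.1% were higher and 10% lower. The endoplasmic reticulum and ribosomal lists had shares under both of these. Shares of lower genes were largest in the antioxidant list and the glucocorticoid and fasting list. They were also above 10% in the heat shock, clock, protein breakdown and integrated stress response lists. Shares of higher genes were somewhat above 13.1% in the immediate early, integrated stress response, protein breakdown, glucocorticoid and fasting, and antioxidant lists. After each count stands its range over the 6 fits that leave out 1 library of day 7, and each of the 6 libraries moved 1 or more of these small counts by over 1.5 times. Of 31 immediate early genes, 5 rose (range 2 to 6: Ier5, Egr3, Egr2, Atf3 and Klf6), with Ier5 at 19.5, 29.7 and 23.4 CPM after sham and 43.6, 42.2 and 49.2 after TAC (0.90 ± 0.17, adjusted p = 0.00157). Of 28 endoplasmic reticulum genes, 2 rose (range 0 to 3: Edem1 and P4hb) and 2 fell (range 0 to 2: Dnajb9 and Herpud1). Of 24 genes of the integrated stress response, 4 rose (range 0 to 5: Slc7a5, Asns, Psat1 and Ddit4) and 3 fell (range 1 to 2: Chac1, Vldlr and Aldh1l2). Of 18 heat shock and chaperone genes, 3 fell (range 0 to 4: Unc45b, Hsp90ab1 and Hspd1) and 0 rose. Of 31 genes of protein breakdown, 5 rose, all lysosomal proteases (range 1 to 6: Ctsz, Ctss, Ctsk, Lgmn and Ctsb), and 4 fell (range 1 to 8: Trim54, Fbxo32, Map1lc3b and Foxo4).

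Of 37 antioxidant genes, 9 fell (range 3 to 12) and 5 rose (range 2 to 8: Gpx1, Gpx7, Cybb, Mt2 and Nox4). Cat, catalase, had 459, 622 and 569 CPM after sham and 278, 365 and 310.2 after TAC (-0.79 ± 0.16, adjusted p = 0.00228). Xdh, xanthine dehydrogenase, had 135, 131 and 135 CPM after sham and 65.4, 75.2 and 72.5 after TAC (-0.91 ± 0.19, adjusted p = 0.00258), and Gpx1, a glutathione peroxidase, had 61.7, 57.2 and 59.7 CPM after sham and 96.4, 75.3 and 87.6 after TAC (0.54 ± 0.12, adjusted p = 0.00426). Of 19 clock genes, 3 fell (range 2 to 5: Nr1d1, Nr1d2 and Hlf). Nr1d1, the repressor REV-ERB alpha, had 217, 212 and 251 CPM after sham and 168, 173 and 134 after TAC (-0.52 ± 0.11, adjusted p = 0.00382), and the hour of harvest is not given in the labels. Of 18 glucocorticoid and fasting genes, 4 fell (range 2 to 4: Pdk4, Ucp3, Klf9 and Klf15) and 3 rose (range 1 to 2: Cdkn1a, Mt2 and Ddit4). Of 32 ribosomal genes, 3 rose (range 1 to 3: Rpl3, Rps19 and Rplp1) and 3 fell (range 1 to 3: Rpl3l, Polr1a and Eef2k). Other strong falls, named by size alone, were those of Cyp26b1, Asb15 and Hsd11b1. Cyp26b1, an enzyme that breaks down retinoic acid, had 20.4, 8.39 and 7.81 CPM after sham and 2.50, 2.65 and 0.760 after TAC (-2.65 ± 0.84, adjusted p = 0.0287), the lowest log2 fold change of the genes named here. Its call was lost without sham replicate 1 (adjusted p = 0.127), TAC replicate 1 (0.0803) or TAC replicate 3 (0.107), and by limma-voom (0.0792). The others were Asb15, a muscle protein of the ankyrin repeat and SOCS box family, with 226, 236 and 227 CPM after sham and 74.5, 115 and 89.7 after TAC (-1.30 ± 0.23, adjusted p = 0.000678), and Hsd11b1, the enzyme that regenerates glucocorticoid, with 10.5, 10.5 and 13.8 CPM after sham and 3.11, 7.21 and 2.97 after TAC (-1.41 ± 0.34, adjusted p = 0.00649). Asb15 and Hsd11b1 passed without each library in turn.

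**Figure D3:**
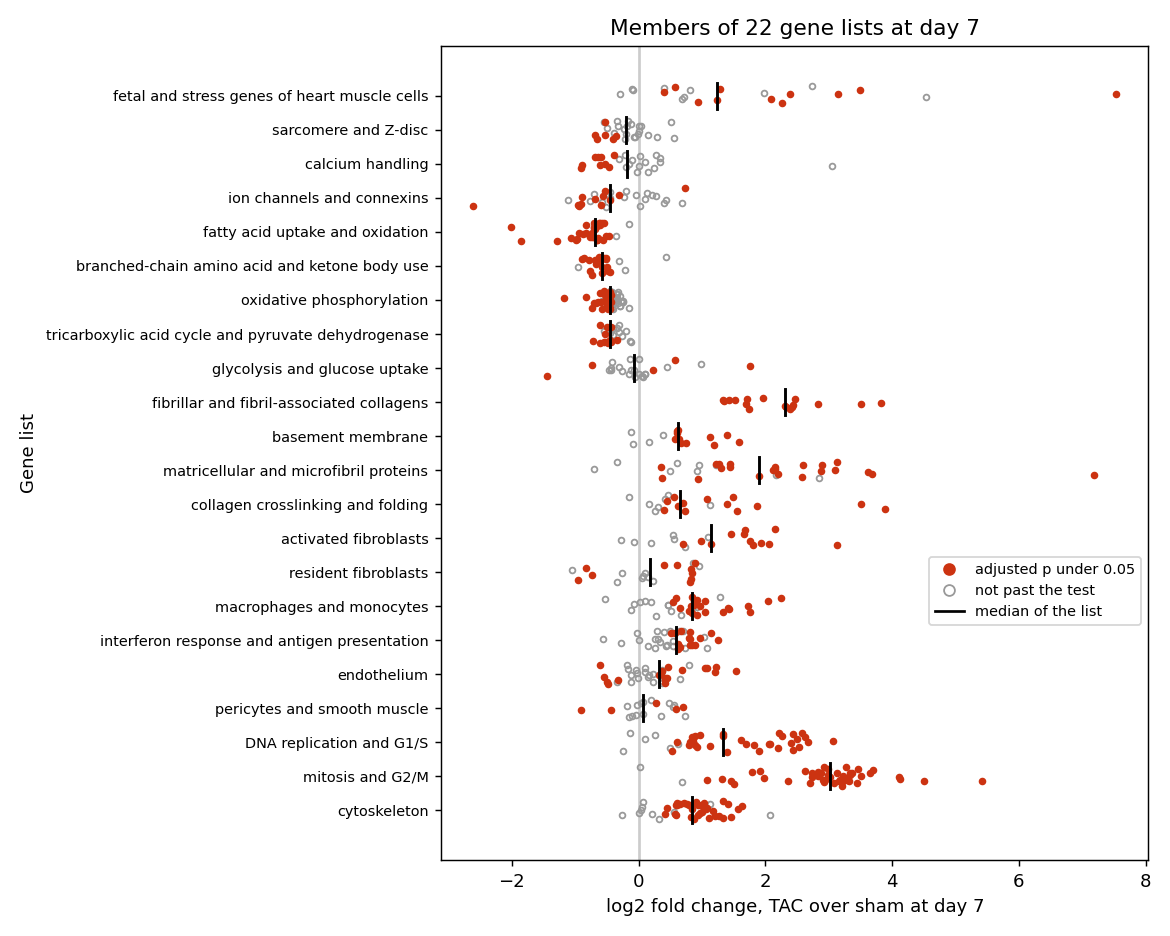
Log2 fold changes, TAC over sham at day 7, of the tested members of 22 gene lists (filled points are past the test, open points are not, bars are list medians). The medians of collagens, matricellular, mitotic and cytoskeletal genes sit to the right of 0, at 3.03 for mitotic genes, and that of fatty acid genes to the left, at -0.69.

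Day 7 was the peak of the time course for some lists and not for others. Each day has its own 3 sham libraries. The mitotic median was 1.99, 3.09, 3.03 and 0.855 at days 2, 4, 7 and 21, the collagen median 0.665, 2.75, 2.32 and 1.16, and the macrophage median 0.692, 1.44, 0.84 and 0.487. The fatty acid median was -0.354, -0.598, -0.69 and -0.421. The endothelial median was -0.148, -0.113, 0.33 and 0.176, and the basement membrane median -0.0528, 0.418, 0.62 and 0.272. The endothelial, basement membrane and fatty acid lists had their farthest median at day 7, and the other 3 of these 6 lists at day 4. For 2 lists this order moved with single libraries. Without TAC replicate 1 the fatty acid median at day 7 was -0.498, a smaller fall than the -0.598 of day 4. The mitotic median at day 7 was 3.16 without TAC replicate 1, 3.28 without sham replicate 2 and 2.74 without sham replicate 3. These values lie on both sides of the 3.09 of day 4, so days 4 and 7 are not told apart for that list. The medians were not tested between days.

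The effect at day 7 was tested against the mean effect of days 2, 4 and 21 in 1 model, gene by gene. It differed in 51 genes, 0.369% of those tested, of which 43 had a higher and 8 a lower effect at day 7. Of these 51, 3 are in the endothelial list (Aplnr, Cdh5 and Mcam) and 2 in the basement membrane list (Lama4 and Nid2). The lists of matrix proteases, activated fibroblasts, neutrophils and acute phase, and mast cells hold 1 each. So do those of the cytoskeleton, the glucocorticoid and fasting response, and the epicardium. None is in the lists of collagens, fatty acid genes, mitosis, macrophages or fetal genes. At a share of 0.369% of all genes tested, most lists of such sizes would hold none, so this absence says little about them. Leaving out 1 library of day 7 at a time gave 18, 24 and 17 genes without sham replicates 1, 2 and 3 and 33, 52 and 17 without TAC replicates 1, 2 and 3, and 14 of the 51 passed in all 6 fits. Those 14, named after their values were seen, were Adam19, Arhgap18, Bcl6b, Cd93, Dchs1, Ets1, Itga6, Mest, Nav3, Nrp2, Pcdh12, Plekhg1, Plxnd1 and Trp53i11. With days 4 and 21 as the other days, an alternative added after seeing the data, 12 of the 51 passed. The endothelial and basement membrane members were among the least stable. Aplnr, Cdh5 and Lama4 passed in 1 of the 6 fits and Mcam and Nid2 in 0, and none of them passed with days 4 and 21. Libraries of the other days were not left out in turn.

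Ets1, a transcription factor of endothelial and lymphoid cells, had 73.8, 70.04 and 76.04 CPM after sham and 116, 112 and 129 after TAC at day 7, with no overlap. Its log2 fold change was -0.19, 0.0066, 0.70 and 0.22 at days 2, 4, 7 and 21, and day 7 lay 0.69 ± 0.083 above the mean of the others (adjusted p = 0.000591). Bcl6b, a repressor found in endothelial cells, had 30.6, 26.98 and 29.7 CPM after sham and 49.7, 53.2 and 62.8 after TAC at day 7 and log2 fold changes of -0.51, -0.28, 0.92 and -0.092 over the 4 days (difference 1.22 ± 0.16, adjusted p = 0.00127). Plxnd1, a semaphorin receptor of vessels, had log2 fold changes of -0.28, 0.0043, 0.71 and 0.059 (difference 0.78 ± 0.10, adjusted p = 0.00127), and Nrp2, a coreceptor for semaphorins and vascular growth factors, -0.28, 0.16, 0.87 and 0.18 (difference 0.85 ± 0.12, adjusted p = 0.00183). In these 4 genes the effect at day 7 was the highest of the 4 days, which their selection by that difference makes likely. Cd93, a surface protein of endothelial cells, followed the same course, with -0.15, 0.23, 0.80 and 0.21 (difference 0.70 ± 0.11, adjusted p = 0.00225).

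Mest, an imprinted gene of fetal growth, had 9.16, 9.94 and 7.45 CPM after sham and 65.6, 39.04 and 63.6 after TAC at day 7. Its log2 fold changes were -0.12, 1.51, 2.66 and 0.56 over the 4 days (difference 2.01 ± 0.29, adjusted p = 0.00183), so that it rose at day 4 as well as at day 7. Adam19 had 0.00079, 0.29, 1.10 and 0.015 (difference 0.998 ± 0.16, adjusted p = 0.00324). In the opposite direction, Lcn2, the siderophore-binding lipocalin of the acute phase, had 2.02, 2.45, -0.41 and 0.17 (difference -1.96 ± 0.41, adjusted p = 0.0350), but it passed in only 1 of the 6 fits without a library. Lmcd1, a LIM-domain protein of heart muscle, had -0.08, -0.12, -0.67 and 0.16 (difference -0.66 ± 0.12, adjusted p = 0.0136) and passed in 4 of the 6.

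**Figure D4:**
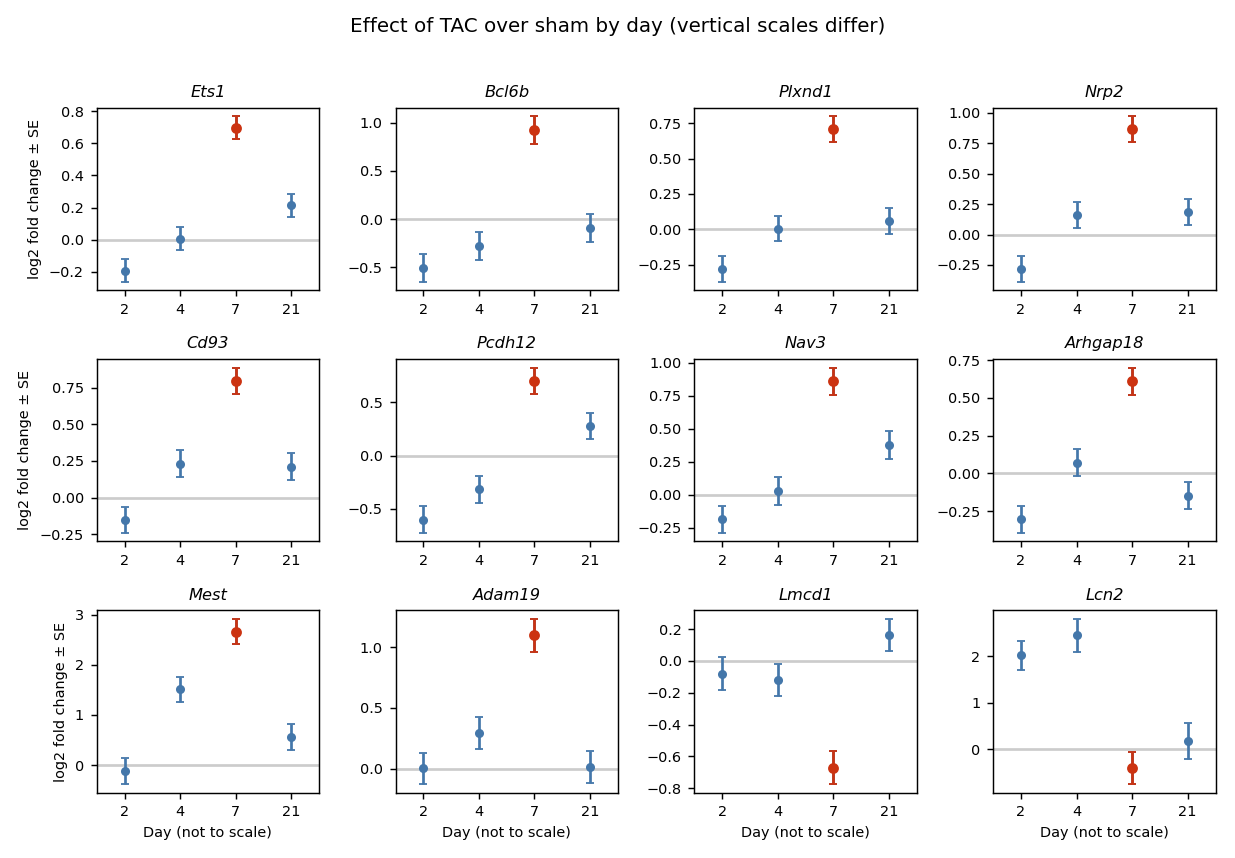
Log2 fold change of TAC over sham (± SE) at days 2, 4, 7 (red) and 21 for 12 genes whose effect at day 7 differed from the mean of the other days, with a vertical scale for each gene. Ets1, Bcl6b, Plxnd1, Nrp2, Cd93, Pcdh12, Nav3, Arhgap18, Mest and Adam19 peak at day 7, while Lmcd1 and Lcn2 are lowest there.

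Against single neighbouring days the tests gave less. The effect at day 7 differed from that at day 4 in 7 genes (0.0507% of those tested), 6 of them higher at day 7, Ets1, Bcl6b, Plxnd1, Nav3, Pcdh12 and 2900026A02Rik, and 1 lower, Lcn2. It differed from day 21 in 9 genes (0.0651%), of which 4 were higher at day 21, Lmcd1 and Lrrc17 among them, and 5 were lower, among them Mest, Adam19 and Arhgap18. Without 1 library of day 7 these counts were 0 to 7 for day 4 and 0 to 17 for day 21. Fits that left 0 genes past the adjusted test still had 886 to 983 (day 4) and 1278 to 1419 (day 21) genes at an unadjusted p under 0.05, and DESeq2 with all libraries called 60 and 74.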

How the data were processed

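Per the labels, left ventricles were frozen in liquid nitrogen and total RNA was turned into libraries by a NuGEN Ovation kit and sequenced on an Illumina NextSeq500. The submitters' processing notes name TopHat, DESeq and the build hg19, a human build that cannot have given mouse gene symbols. The sources used here do not give the mouse build, the annotation, the counting tool or its use of strand, so that overlapping and antisense genes cannot be told apart. The authors deposited raw read counts per gene symbol, and the tests rest on these. The RPKM table, per the file headers the authors' own values for the same libraries, served for shares within gene pairs and as an alternative. Of the list members, 2 (Ighm and Siglecf) were not analysed here. Results for some list members are not reported here.

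In R 4.3.3 with edgeR 4.0.16, filterByExpr on the 8 groups kept 13816 of 24015 genes, libraries were scaled by TMM, and group means (8) were fitted by quasi-likelihood with glmQLFit and tested with glmQLFTest over all 24 libraries, with 16 residual degrees of freedom and a biological coefficient of variation of 0.146. TAC day 7 was compared with sham day 7, and the effect of TAC at day 7 with that at the other days, in two-sided tests adjusted by Benjamini-Hochberg over all genes tested, with a threshold of 0.05. The SE is the size of a log2 fold change divided by the square root of its F statistic. Where a gene has few reads, its log2 fold change depends on edgeR's prior count. Medians per TAC library are of log2(CPM + 0.5). The fit was tested on simulated data. The libraries of day 7 held 11762978 to 14936851 counted reads, and the spread between libraries rather than counting noise set the precision.

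The members, the 51 gene lists and the tests were chosen with earlier results of these data known. Genes were named by a rule: among called genes whose groups do not overlap and whose average log2 CPM reaches 3, the 12 that rose and the 12 that fell furthest, up to 4 members of each list with the smallest p, up to 3 called members against the direction of their list, a fixed set of heart, matrix and cell type genes, and the 8 largest and 8 smallest differences of day 7 from the other days at the same level. Myl2 and the genes that passed in all 6 fits without a library were named outside this rule, and the choice of which of them to print was made after their values were seen. Alternatives were RLE scaling, no filter, a minimum of 1 CPM in 6 libraries, DESeq2 1.42.0, limma-voom (limma 3.58.1), the replicate number as a block, limma on log2(RPKM + 1) and log2(RPKM + 0.1) of genes with an RPKM of at least 1 in 3 libraries or of all genes, the libraries of day 7 alone, and each library of day 7 left out. Promoter windows and sequences are RefSeq's (GRCm38.p6).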

Additional observations from a re-analysis of the deposited data

Results flagged for a closer look

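Each result here was picked out because a test of the difference itself found the effect of TAC at day 7 to differ from its effect at another day or at the mean of days 2, 4 and 21. The test found 51 genes against that mean, 7 against day 4 and 9 between day 21 and day 7. Of the 43 genes higher at day 7 than at the mean of the other days, 21 are given here, in log2 units: Mest by 2.01, Usp43 by 1.41, Wt1 by 1.32, Pcdh17 by 1.26, Bcl6b by 1.22, Sez6l2 by 1.05, Aplnr by 1.03, Adam19 by 0.998, Kit by 0.982, Fscn1 by 0.945, Pcdh12 by 0.916, Trp53i11 by 0.881, Nrp2 by 0.846, Nav3 by 0.786, Plxnd1 by 0.780, Arhgap18 by 0.737, Dchs1 by 0.736, Cd93 by 0.701, Plekhg1 by 0.688, Ets1 by 0.686 and Itga6 by 0.620. Lower were Lcn2 (-1.96), Lrrc17 (-1.17), Alg12 (-0.753), Tmtc1 (-0.742), Sra1 (-0.688), Lmcd1 (-0.660), Dctn6 (-0.617) and Gpr146 (-0.408). Usp43 and Wt1, under the level the naming rule asks for, were added after their values were seen. Of the 43 higher genes, 14 passed in all 6 fits without 1 library of day 7 and the other 29 in 0 to 3 of them. None of the 8 lower genes passed in all 6: Lmcd1 passed in 4, Sra1 in 3, Tmtc1 in 2 and the other 5 in 1.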

How the results depend on the processing

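With TAC against sham at day 7, the counts of all, higher and lower genes stayed within 1.5 times of 3201, 1816 and 1385 under every alternative that kept all libraries of day 7 (2472 to 3462 genes in all), and moved with single libraries: 1270 to 4132 in all, 887 to 2224 higher and 383 to 1908 lower. The 109 called genes with printed values kept their direction under every setting run, and 98 of them stayed past the test without each library in turn, while 10 lost the call without TAC replicate 1 and 5 without TAC replicate 3. The effect at day 7 against the mean of the other days gave 149 genes by DESeq2 and 17 to 52 without 1 library, and 13 with days 4 and 21 as the other days, and leaving out the 6 libraries of day 2 gave 3209 for TAC against sham; both were added after seeing the data. Against day 4 it gave 60 by DESeq2 and 0 to 7 without 1 library. Day 21 minus day 7 gave 74 by DESeq2, 3 by limma-voom, 21 by limma on log2(RPKM + 1) and 0 to 17 without 1 library. The cause of these shifts was not tested. The replicate number as a block gave 2740 genes for TAC against sham, 22 for day 7 against the other days, and 0 by edgeR for day 7 minus day 4 and for day 21 minus day 7 (943 and 1513 at an unadjusted p under 0.05). The labels do not say that the number pairs samples: same-numbered libraries had correlations of -0.151 to 0.141 over 12 pairs, 1 of them over 0.1, and at day 7 none of the 3 sham libraries correlated best with its own number. Libraries of other days were not left out in turn. With 3 libraries a group, counts in several fuel and matrix lists moved with single libraries, and genes with few reads, such as Sprr1a, Cthrc1 and Ccl8, have folds that 1 library or the prior count can move.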

Other observations

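The lists of cell types that a piece of ventricle can hold beside muscle, fibroblasts, vessels and immune cells gave few calls. Of the 5 tested genes of 12 for the epicardium and mesothelium, the covering layer of the heart, 3 rose at day 7 by edgeR (1 to 4 without 1 library, and 1 by limma-voom). Wt1, a transcription factor of the epicardium and of activated endothelium, had 3.95, 4.84 and 5.32 CPM after sham and 7.94, 12.6 and 11.9 after TAC, with no overlap (log2 fold change 1.20 ± 0.23, adjusted p = 0.00124). In log2 units, the effect of TAC on Wt1 was -0.37, 0.21, 1.20 and -0.20 at days 2, 4, 7 and 21. Aldh1a2, which makes retinoic acid, had 3.24, 2.51 and 1.77 CPM after sham and 6.23, 8.42 and 13.7 after TAC (log2 fold change 1.90 ± 0.60, adjusted p = 0.0281). Every TAC library was above every sham library, but the call was lost without sham replicate 1 (adjusted p = 0.0536), sham replicate 2 (0.0734), sham replicate 3 (0.104) or TAC replicate 3 (0.113), and by limma-voom (0.183). The defining genes Msln, Upk1b, Upk3b, Bnc1 and Krt19 had too few reads to be tested.

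Of the 4 tested fat cell genes of 12, Lipe, the hormone-sensitive lipase that muscle uses as well, fell (log2 fold change -0.61 ± 0.17, adjusted p = 0.0147, but 0.0942 without sham replicate 3 and 0.0585 without TAC replicate 1), while Adipoq, Plin1 and Cidec had too few reads to be tested. Of the 9 tested genes of Schwann cells and neurons and the 4 of skeletal muscle, edgeR called none. At an unadjusted p under 0.05, Tubb3 was higher and Kcna1 was lower. DESeq2 called 1 gene of Schwann cells and neurons in each direction, and limma-voom called none in either list.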
